A study of Mus musculus with 6 samples.

Results

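Activity-regulated immediate early genes are transcribed within minutes when calcium and kinase signals reach a neuron's nucleus, before new protein is made. A total of 32 such genes was listed by name, from the transcription factors Fos, Egr1 and Npas4 to effectors at the synapse such as Arc, Bdnf and Homer1. All 32 had at least 1 probe of that gene name on the array, 40 probes in all, and all 32 passed the filter on dim probes, among 32696 genes tested. On 31 of them the probe used was well above background on all 6 arrays. None differed between the groups after adjustment over all genes. The lowest adjusted p was 0.16, for Ptgs2, whose probe was well above background on 3 of 3 control arrays but on 1 of 3 arrays of the other group. With a filter that asks for all 6 arrays Ptgs2 had no value, and the lowest adjusted p among the remaining 31 was 0.22. Apart from Ptgs2, the log2 differences lay between -0.50 and 0.54.

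RNA came from primary somatosensory cortex (S1), dissected from C57BL/6 mice at postnatal day 7, and each sample had a 1-colour array of its own. Controls numbered 3 and carried Lhx2 f/f, floxed alleles without Cre, although labels also call them wild-type. The other 3 samples were labelled Lhx2 cKO (Lhx2 f/f;Nex-Cre), in which Cre is driven from the Nex (Neurod6) gene in young excitatory neurons of the cortex, so that interneurons, glia and vessels keep Lhx2. Both groups carry the floxed alleles. The labels do not say that samples came from separate animals or give sex, so the tests cover sample-to-sample spread, which may be technical.

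Immediate early genes couple sensory input to lasting change in a neuron. Calcium entry through glutamate receptors and channels activates kinases, which act on factors bound beforehand to the promoters, among them CREB at the cyclic AMP response element (CRE) and serum response factor at the CArG box. The first products are themselves transcription factors, which switch on later genes, and effectors that act at synapses. In S1 these genes respond to whisker and body input through the thalamus. Many of them are also induced by growth factors, stress or handling, and in glia and vessels as well as in neurons.

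The promoters of the 5 genes with an unadjusted p under 0.05 are shown, because these genes are described array by array and start regions hold the elements through which immediate early genes are switched on. Sequences are from RefSeq on GRCm38.p6, 5′ to 3′ from 250 bases before to 50 after the start. Capitals mark matches to the CRE core (TGACG, or CGTCA on the other strand), the Egr site (GCGTGGGCG or GCGGGGGCG) and the TATA box (TATAAA).
Ptgs2, chr1:150099781-150100080, plus strand: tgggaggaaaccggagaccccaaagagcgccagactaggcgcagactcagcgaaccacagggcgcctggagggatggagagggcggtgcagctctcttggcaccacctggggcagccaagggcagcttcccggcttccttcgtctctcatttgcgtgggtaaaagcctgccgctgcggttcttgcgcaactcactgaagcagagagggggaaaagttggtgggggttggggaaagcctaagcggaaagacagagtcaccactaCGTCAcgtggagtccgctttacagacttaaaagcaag
Cyr61, chr3:145649936-145650235, minus strand: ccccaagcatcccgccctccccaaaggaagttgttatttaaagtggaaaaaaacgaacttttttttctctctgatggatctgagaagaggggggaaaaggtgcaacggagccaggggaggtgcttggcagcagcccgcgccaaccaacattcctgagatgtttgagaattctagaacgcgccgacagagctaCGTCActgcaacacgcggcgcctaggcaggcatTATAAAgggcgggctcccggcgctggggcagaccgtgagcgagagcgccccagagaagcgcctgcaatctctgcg
Gadd45g, chr13:51846425-51846724, plus strand: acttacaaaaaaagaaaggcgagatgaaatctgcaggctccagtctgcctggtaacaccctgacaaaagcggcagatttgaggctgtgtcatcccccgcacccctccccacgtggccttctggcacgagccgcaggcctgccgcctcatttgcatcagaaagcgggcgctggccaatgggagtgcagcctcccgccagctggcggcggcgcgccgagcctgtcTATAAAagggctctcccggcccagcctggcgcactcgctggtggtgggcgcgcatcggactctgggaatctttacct
Atf3, chr1:191183284-191183583, minus strand: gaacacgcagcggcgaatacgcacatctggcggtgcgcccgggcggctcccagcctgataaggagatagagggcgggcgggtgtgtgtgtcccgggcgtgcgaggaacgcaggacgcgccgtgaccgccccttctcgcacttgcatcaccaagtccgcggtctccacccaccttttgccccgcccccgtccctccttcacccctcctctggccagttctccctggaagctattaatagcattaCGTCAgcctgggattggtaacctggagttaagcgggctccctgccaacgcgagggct
Fosl2, chr5:32136222-32136521, plus strand: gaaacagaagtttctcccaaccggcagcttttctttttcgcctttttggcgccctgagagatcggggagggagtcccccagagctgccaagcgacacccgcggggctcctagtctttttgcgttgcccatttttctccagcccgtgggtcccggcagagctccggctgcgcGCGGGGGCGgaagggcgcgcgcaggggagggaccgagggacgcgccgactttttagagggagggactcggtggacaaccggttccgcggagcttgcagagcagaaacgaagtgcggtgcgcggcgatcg

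In these windows the CRE core lay at -7 in Atf3, -58 in Cyr61 and 13 in Ptgs2, counting the start as 0. Gadd45g and Cyr61 held a TATA box at -27 and -25, and Fosl2 an Egr site at -79. Across the list, 27 of the 32 genes had 42 promoters in the table, several of them overlapping or of 1 gene. The CRE core, on either strand, was found in 57.1% of these promoters, against 20.8% of all 32851. The full CRE (TGACGTCA), which contains the core on both strands, was found in 9.52% against 1.79%, in Btg2, Dusp1, Maff and Scg2. The CArG box was found in 11.9% against 1.63%, in Dusp5 and in 4 promoters of Egr2, of which 3 overlap one another. Egr sites were found in 11.9% against 3.47%, and the AP-1 site (TGACTCA or TGAGTCA, either strand) in 0 of 42 against 5.2%. A match describes letters in a short window and is not a measured binding site.

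The check of the labels comes first. The Lhx2 probe (mm9, chr2:38224933-38224992) read 3.62, 3.63 and 3.55 in control arrays 1 to 3 and 4.55, 4.68 and 4.89 in the arrays labelled cKO, all on the scale of every level below, log2 signal minus the 75th percentile of that array's probes. This is opposite to a loss of transcript, and no source used here says which part of Lhx2 is deleted. Neurod6, the gene that drives Cre, was also higher in the arrays labelled cKO. It read 2.27, 2.13 and 2.35 in control arrays 1 to 3 and 2.85, 2.50 and 2.52 in the arrays labelled cKO, with no overlap (log2 difference 0.37, SE 0.13, adjusted p = 0.52). Neither Lhx2 nor Neurod6 thus backs the labels. The samples are therefore called the arrays labelled cKO, and every direction rests on the labels. All 11 markers of excitatory cortical neurons, among them Slc17a7 and Tbr1, passed the filter on dim probes. All 6 arrays lay on 1 slide. Genes of the Y chromosome were well above background in control arrays 1 and 3 only. Y-linked signal was thus partly confounded with group, and only control array 2 lacked it as the arrays labelled cKO did. Rows 1 and 2 of the slide each held 1 array of either group, and the values within them compare 1 array with 1. In both rows the control array lay in slide column 1 and the array labelled cKO in column 2. Column and group thus cannot be told apart in these values.

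Across all genes, limma called 3 of 32696 (0.00918%) at an adjusted p under 0.05, and 0 of the 32 immediate early genes. At an unadjusted p under 0.05 there were 5 of the 32 (15.6%), against 7.49% of all genes: Ptgs2, Gadd45g, Cyr61 and Atf3, lower in the arrays labelled cKO, where 4.37% of all genes were, and Fosl2, higher, where 3.12% were. The 2 groups did not overlap for 6 of the 32 (18.8%), against 13.2% of all genes: 5 lower (6.19% of all genes) and 1 higher (6.98%). A difference of at least 0.4 in size was seen in 5 of the 32 (15.6%), against 6.47% of all genes. Ptgs2 is in each of these counts and passed the filter through the control arrays. The filter on all 6 arrays gave it no value. Of the 31 genes left, 4 then had an unadjusted p under 0.05 by limma, beside 7.81% of all genes. The groups did not overlap for 5 of them, beside 13.4% of all genes. Fosl2 entered the counts by its brighter probe, and its dimmer probe went the other way, as given below. With the mean of a gene's probes, 4 of the 32 had an unadjusted p under 0.05 by limma, beside 7.47% of all genes. Without overlap there were then 5 of the 32, beside 13.3% of all genes. Leaving out cKO replicate 1 or control replicate 3 gave 11 of the 32 without overlap in either case, where 24.5% and 27.6% of all genes did not overlap. The mean was lower in the arrays labelled cKO for 23 of the 32 (71.9%), where 44.3% of all genes were lower. The median log2 difference was -0.07, beside 0.02 over all genes. With 1 array left out, the number lower ran from 19 of the 32, without cKO replicate 2 or control replicate 3, to 26, without cKO replicate 1. The median over all genes in these fits was -0.01 to 0.04. The members were picked by name with earlier results known, and no test of the list was made.

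**Figure D1:**
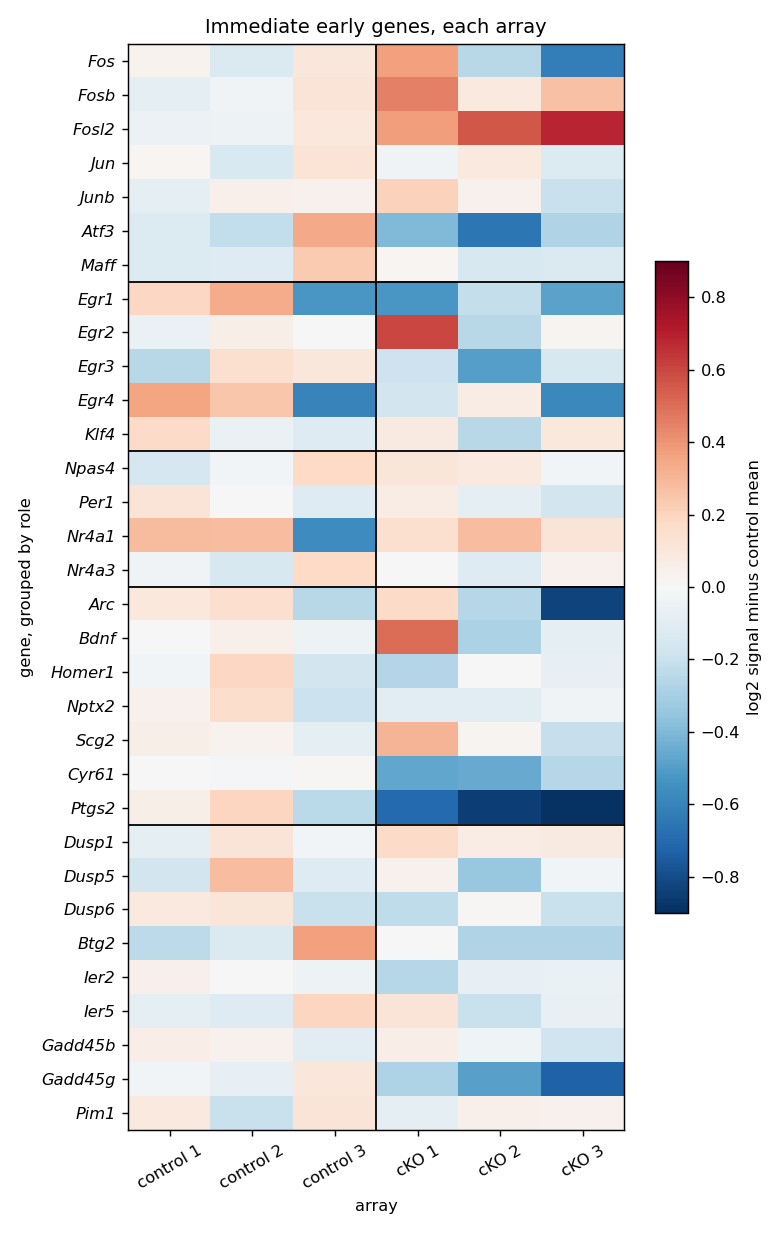
Log2 signal of each of the 32 immediate early genes (rows, grouped by role with black lines) on the 3 control and the 3 cKO arrays (columns), minus the gene's control mean. Ptgs2 (well above background on only 1 cKO array), Cyr61, Gadd45g, Atf3, Egr1 and Egr3 are among the rows below the control mean (blue) on all 3 cKO arrays. Fosl2 (brighter probe), Fosb, Dusp1 and Nr4a1 are above it (red) on all 3. The control columns mix colours by construction, since each row is set against its control mean.

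Ptgs2 (cyclooxygenase-2, the inducible enzyme of prostaglandin synthesis, made in excitatory neurons after activity) was measured only partly in the arrays labelled cKO. Its probe (mm9, chr1:151954744-151954803) read -4.90, -4.76 and -5.19 in control arrays 1 to 3 and -5.65, -5.80 and -5.84 in cKO arrays 1 to 3. The groups did not overlap, and the measured log2 difference was -0.82 (SE 0.13, adjusted p = 0.16). The probe was well above background on 1 of 3 cKO arrays and passed the filter through the control arrays, so the size of this difference is not firm. Of the 10 spots of this probe, 6, 4 and 5 were well above background on the cKO arrays and 10, 10 and 9 on the control arrays. With normexp background correction and its offset of 50 in place of the scanner's own correction, the log2 difference was -0.17. Within slide rows 1 and 2 it was -0.90 and -1.09.

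Gadd45g, a member of the growth arrest and DNA damage family that is induced by activity and takes part in DNA demethylation and stress kinase signalling, read 2.59, 2.54 and 2.72 in control arrays 1 to 3 and 2.34, 2.13 and 1.89 in cKO arrays 1 to 3. All cKO arrays lay below all control arrays, 1.41-fold on the mean (log2 difference -0.50, SE 0.14, adjusted p = 0.37). The probe lies at chr13:51943733-51943792 on mm9. Within rows 1 and 2 the difference was -0.46 and -0.65. With a term for Y-linked signal, where the group contrast rests on 1 control array, it was -0.42. Its relative Gadd45b read between -0.78 and -0.54 in the 6 arrays, with a log2 difference of -0.05 and a 95% interval of -0.30 to 0.20.

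Cyr61 (also named Ccn1), a matricellular protein induced by growth factors and by serum response factor, read -1.84, -1.86 and -1.83 in control arrays 1 to 3. The cKO arrays read -2.31, -2.30 and -2.10, a 1.31-fold lower mean (log2 difference -0.39, SE 0.10, adjusted p = 0.32). The control arrays lay within a few hundredths of each other, with an SD of 0.02, and every cKO array was below them. Within rows 1 and 2 the difference was -0.46 and -0.24. With a term for Y-linked signal, where the group contrast rests on 1 control array, it was -0.38.

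Atf3, a bZIP factor that is induced by stress and injury, read -3.58, -3.68 and -3.12 in control arrays 1 to 3 and -3.86, -4.11 and -3.73 in cKO arrays 1 to 3. The groups did not overlap, but control array 3 stood above the other controls, and the gap between the lowest control and the highest cKO array was small. The log2 difference was -0.44 (SE 0.18, adjusted p = 0.63). It was -0.05 within slide row 2, -0.53 within row 1, -0.27 without control replicate 3, -0.22 without the arrays with Y-linked signal and -0.18 with normexp.

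Fosl2 encodes Fra-2, a Fos family partner of the Jun proteins, and its 2 probes went opposite ways. The brighter probe (mm9, chr5:32460076-32460135) read 0.44, 0.45 and 0.59 in control arrays 1 to 3 and 0.87, 1.05 and 1.18 in cKO arrays 1 to 3. Every cKO array was above every control array, a 1.45-fold higher mean (log2 difference 0.54, SE 0.11, adjusted p = 0.25). The dimmer probe (chr5:32455088-32455147) read -2.32, -2.43 and -2.69 in control and -2.85, -2.90 and -2.84 in cKO arrays 1 to 3, with every cKO array below every control array (log2 difference -0.38, SE 0.12). With the mean of both probes the difference was 0.08, so no single direction can be given for Fosl2. Exon and untranslated region annotation on mm9 was not used here.

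Ier2, a nuclear protein of early growth response, was the sixth gene without overlap. It read -3.63, -3.67 and -3.72 in control arrays 1 to 3 and -3.93, -3.75 and -3.73 in cKO arrays 1 to 3. The groups were barely parted, and the log2 difference of -0.13 (SE 0.10, adjusted p = 0.92) was near its error.

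**Figure D2:**
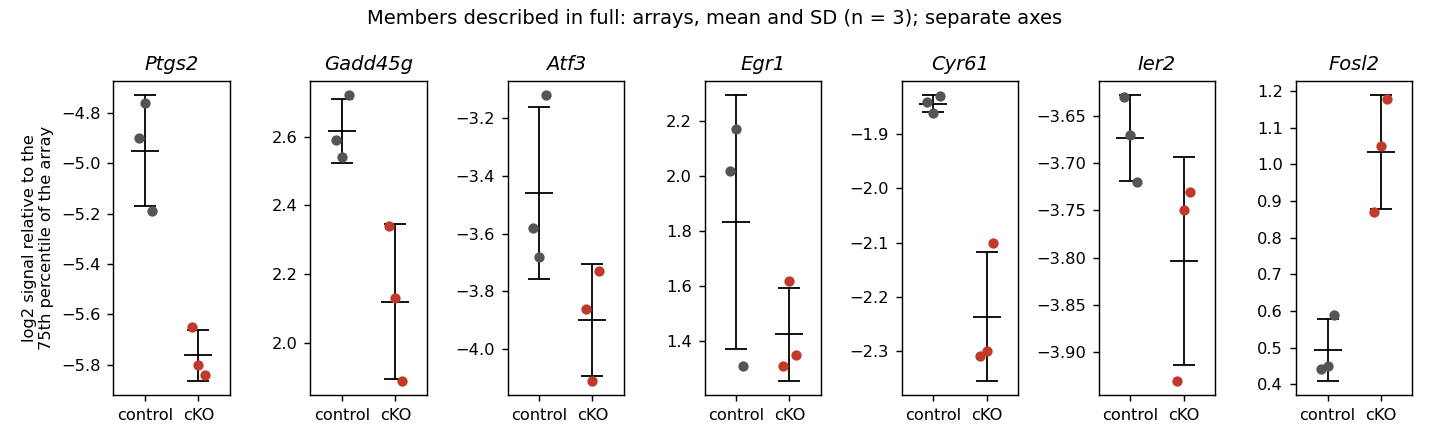
Log2 signal minus the array's 75th percentile for the 7 genes given in full, with grey points for control arrays, red points for cKO arrays, and a bar for mean and SD (n = 3); each gene has its own axis. The groups do not overlap except in Egr1, where control array 3 (1.31) lies among the cKO arrays.

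The zinc finger factors of the Egr family, direct readouts of kinase signalling, differed more between replicates than between groups. Egr1, the most widely used marker of neuronal activity of the family, read 2.02 and 2.17 in control arrays 1 and 2 but 1.31 in control array 3, the level of the cKO arrays at 1.31, 1.62 and 1.35. Its log2 difference was -0.41 (SE 0.23, adjusted p = 0.83). With 1 array left out it ran from -0.24, without control replicate 2, to -0.67, without control replicate 3 (adjusted p = 0.29). It was -0.74 against control array 2 alone, the control array without Y-linked signal. Egr4 followed the same arrays, at 1.17, 1.06 and 0.21 in control and 0.65, 0.88 and 0.23 in cKO. Its log2 difference was -0.23 with all arrays and -0.53 without control replicate 3 (adjusted p = 0.52), but -0.05 without control replicate 1 or cKO replicate 3 and -0.11 without control replicate 2.

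Egr3 read -3.32, -2.93 and -2.97 in control and -3.26, -3.57 and -3.22 in cKO, overlapping through control array 1 (log2 difference -0.28, SE 0.15). Egr2, a factor of myelinating cells as well as of active neurons, read -1.96 in cKO array 1, above every other array, while cKO arrays 2 and 3 read -2.81 and -2.54 and the controls -2.62, -2.51 and -2.56. The group means of Egr2 differed by 0.13 (SE 0.21), by -0.11 without cKO replicate 1 and by 0.32 without cKO replicate 2. Klf4, a Krüppel-like factor that restrains axon growth, differed by -0.02 (SE 0.14).

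Among the AP-1 genes, Fos itself read -3.01, -3.17 and -2.94 in the control arrays and -2.67, -3.29 and -3.66 in the cKO arrays. The cKO arrays thus spanned 0.99 around a control range of 0.23, both above and below it. Each Fos value is a mean of up to 10 spots, whose SD within an array was 0.08 to 0.17. The log2 difference of Fos was -0.17 (95% interval -0.74 to 0.40), but -0.44 without cKO replicate 1 and 0.06 without cKO replicate 3, so its sign rested on single arrays.

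Fosb, whose stable short product builds up with repeated activity, read -1.99, -1.94 and -1.79 in control and -1.45, -1.82 and -1.64 in cKO. Only cKO array 2 overlapped the controls, and the log2 difference was 0.27 (SE 0.12, adjusted p = 0.71). The Jun family members Jun and Junb, partners of the Fos proteins, differed by -0.02 (95% interval -0.28 to 0.24) and 0.02 (-0.28 to 0.32). Maff, a small Maf factor, differed by -0.09.

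Npas4 is the member most closely tied to calcium entry in neurons, and it recruits inhibitory synapses. It read -0.10, 0.03 and 0.23 in the control arrays and 0.16, 0.14 and 0.03 in the cKO arrays. The groups overlapped fully, with a log2 difference of 0.06 and a 95% interval of -0.21 to 0.33. Of the orphan nuclear receptors, Nr4a3 differed by -0.03 (-0.30 to 0.24). Nr4a1 read 2.50, 2.49 and 1.65 in control and 2.36, 2.49 and 2.33 in cKO, with control array 3 low as for Egr1 and Egr4. Its log2 difference of 0.18 became -0.10 without control replicate 3 and 0.32 without control replicate 1 or 2. Per1, a clock gene with a CRE-driven response, differed by -0.06, and its other probe by -0.03.

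Of the synaptic effectors, Arc, which removes AMPA receptors from active synapses, read -0.55, -0.49 and -0.89 in control and -0.47, -0.90 and -1.48 in cKO. The highest and the lowest of the 6 arrays were both labelled cKO. Its log2 difference was -0.31 (SE 0.26, adjusted p = 0.95), -0.04 without cKO replicate 3 and -0.54 without cKO replicate 1. Bdnf, the neurotrophin that matures cortical circuits, read -1.02, -0.98 and -1.07 in control and -0.52, -1.31 and -1.11 in cKO, again with cKO array 1 on top and the other 2 cKO arrays below every control. The group means of Bdnf differed by 0.05 (95% interval -0.43 to 0.52), by -0.18 without cKO replicate 1 and by 0.21 without cKO replicate 2.

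Scg2, the precursor of the peptide secretoneurin, read 3.31, 3.29 and 3.17 in control and 3.56, 3.28 and 3.05 in cKO. Its cKO arrays bracketed the controls, as for Fos and Arc. Nptx2, a pentraxin that gathers AMPA receptors on interneurons, differed by -0.07 (SE 0.11), and its second probe by 0.00.

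Homer1 is measured in a form-specific way, which matters because the short form, Homer1a, is the activity-induced one that uncouples the scaffold made by the long forms. The files assign 3 of its 5 probes to transcript variant S, the short form, and 2 to variant L. The short-form probe at chr13:94125924-94125983 (mm9) read 0.50, 0.50 and 0.20 in control and 0.36, 0.42 and 0.21 in cKO, and the long-form probe at chr13:94174815-94174874 read 1.63, 1.84 and 1.49 in control and 1.39, 1.65 and 1.58 in cKO. Both overlapped between the groups. The 3 short-form probes differed by -0.07, -0.07 and -0.16 and the long-form probes by -0.03 and -0.11, with SEs of 0.10 to 0.13.

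**Figure D3:**
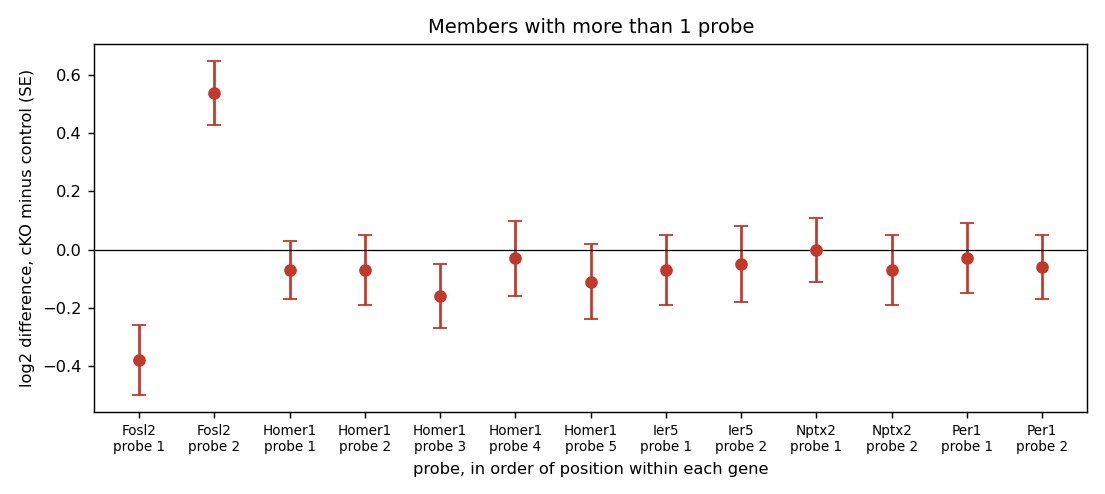
Log2 difference, cKO minus control, with its SE (n = 3 arrays per group) for each probe of the genes that have more than 1. The Fosl2 probes lie at -0.38 and 0.54 on opposite sides of 0, while the probes of Homer1, Ier5, Nptx2 and Per1 lie between -0.16 and 0.00.

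The phosphatases and growth regulators had log2 differences of -0.18 to 0.11 apart from Gadd45g. Among the phosphatases that switch off MAP kinases, Dusp1 differed by 0.11 (SE 0.10), Dusp5 by -0.11 (SE 0.16) and Dusp6 by -0.14 (SE 0.12). Ier5 differed by -0.05 and the kinase gene Pim1 by 0.00. Btg2, an antiproliferative gene, read -1.72, -1.62 and -1.12 in control and -1.48, -1.76 and -1.76 in cKO, with control array 3 highest of all, as for Atf3. By role, the means were lower in the arrays labelled cKO for 8 of these 9 genes, 4 of the 7 bZIP factors, 4 of the 5 zinc finger factors, 2 of the 4 genes around Npas4 and 5 of the 7 effectors. Outside the 7 genes of the plot of values by group, the other 25 had log2 differences between -0.31 and 0.27 and adjusted p of at least 0.71.

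The replicates differed within both groups. Of the 32 genes, 10 spanned at least 0.5 within a group. In the control group, array 3 lay below its group's mean by 0.53 to 0.61 on the log2 scale for Egr1, Nr4a1 and Egr4 and above it by 0.34 for Atf3 and 0.37 for Btg2. In the cKO group, array 1 lay above its group's mean by 0.54 for Fos, 0.48 for Arc, 0.48 for Egr2, 0.46 for Bdnf and 0.26 for Scg2. In cKO array 3 the deviation was -0.53 for Arc, -0.45 for Fos, -0.36 for Egr4 and -0.25 for Scg2, while Egr4 was at 0.06 in cKO array 1. Egr2 and Bdnf were lowest in cKO array 2, at -0.38 and -0.33. The genes that stood apart in 1 group were mostly not those of the other, with Egr4 in both. Counted over all 32 genes, cKO array 1 was the highest of the 6 arrays for 9 genes, cKO array 2 for 0 and cKO array 3 for 1. Control arrays 1 to 3 were highest for 5, 7 and 10. No share of all genes is given here for these counts or for the span of at least 0.5.

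The median deviation from the control mean was 0.03, -0.10 and -0.13 in cKO arrays 1 to 3, beside 0.05, -0.02 and 0.02 for all genes. The cKO arrays 2 and 3 were lowest of all arrays for 8 and 9 genes. The median SD within a group was 0.16 for the arrays labelled cKO and 0.17 for control over the 32 genes, against 0.14 in both groups over all genes.

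**Figure D4:**
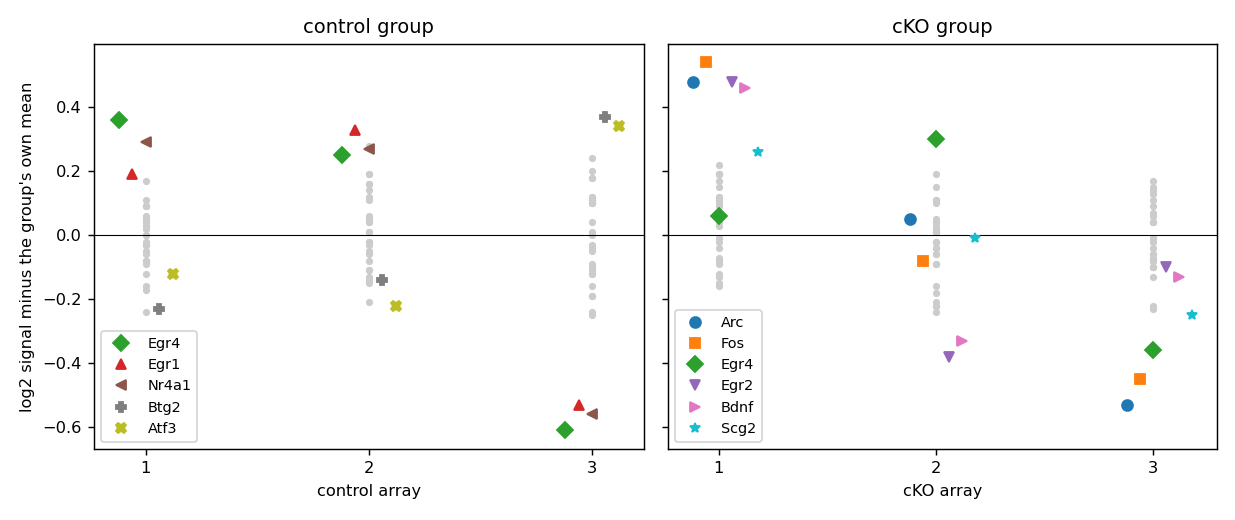
Log2 signal of each immediate early gene minus its own group's mean, for the 3 control arrays (left) and the 3 cKO arrays (right); genes that span at least 0.5 in that group have coloured symbols and the others are grey. Egr1, Egr4 and Nr4a1 are low in control array 3, and Fos, Arc, Egr2 and Bdnf are high in cKO array 1.

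The wider pathway was read from lists chosen by name. For comparison with these lists and the marker lists below, 3.12% of all genes were higher and 4.37% lower at an unadjusted p under 0.05 by limma. The mean was lower in the arrays labelled cKO for 44.3% of all genes. Of 49 other activity-regulated genes tested of 50 listed, 0 passed over all genes, 3 were higher and 4 lower at an unadjusted p under 0.05 by limma, and the median log2 difference was -0.14. Bhlhe40, a repressor of the clock and of activity-dependent genes, read -0.47, -0.40 and -0.67 in control and 0.54, 0.44 and 0.22 in cKO, with no overlap (log2 difference 0.92, SE 0.12, adjusted p = 0.097). The stress-responsive factor gene Cebpd differed by -0.58 (adjusted p = 0.30) and Rgs2, an inducible brake on G-protein signalling, by -0.38 (adjusted p = 0.32). Each of the 3 lay on 1 side of all control arrays.

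Of 54 genes that relay the signal to the nucleus, out of 56 listed, 0 passed, 0 were higher and 2 lower at an unadjusted p under 0.05, with a median of 0.00. These were Elk3, a partner of serum response factor, at -0.44, and the calcineurin target Nfatc3 at -0.44, with adjusted p of 0.26 and 0.33. Gria1, an AMPA receptor subunit, differed by 0.28. Of 20 heat shock and stress genes tested of 21, 0 passed at an adjusted p under 0.05 or an unadjusted one, with a median of 0.04 and Chac1 (0.15), Slc2a1 (-0.19) and Dnajb1 (0.10) at the smallest p.

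Markers of other cells differed between the same arrays, and fewer cells of a type cannot be told apart from less RNA per cell in such tissue samples. All 12 astrocyte markers, all 12 microglia markers, 10 of 12 oligodendrocyte lineage markers and 10 of 14 endothelial and vascular markers had a lower mean in the arrays labelled cKO, and 0 passed over all genes. Of these, 12, 10, 5 and 4 were lower at an unadjusted p under 0.05. The summed linear signal, in units of the array's 75th percentile, was 120 to 143 in the cKO arrays against 170 to 202 in control for astrocytes, 67.4 to 72.5 against 84.8 to 87.9 for microglia, 137 to 159 against 163 to 204 for the oligodendrocyte lineage, and 28.7 to 31.9 against 29.0 to 35.9 for vessels. All of these markers were tested. Gfap differed by -1.15, Cnp by -0.98, Cx3cr1 by -0.82 and Tagln by -0.39. The vascular list lay beside Cyr61, Ptgs2 and Atf3, which vessels and glia also express, and its part in their lower signal was not tested.

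Markers of neurons and of tissue next to S1 gave further values. Of the 11 excitatory neuron markers, 4 were higher and 2 lower at an unadjusted p under 0.05, with Emx1 at -0.91, Fezf2 at 0.45 and Tbr1 at 0.33, and the summed signal was 90.8 to 106 in the cKO arrays and 87.7 to 95.4 in control. Interneuron markers were lower for 7 of 8, with Gad2 at -0.38, Slc32a1 at -0.33 and Reln at 0.30 (sums of 57.3 to 70.4 against 70.2 to 75.6). Of 10 striatum, thalamus and hippocampus markers, 4 were lower at an unadjusted p under 0.05, among them Rora at -0.53 and Zbtb20 at -0.64, and the sums were 12 to 13.2 against 16.7 to 23.4. Red blood cell genes (6 of 6 higher, Hbb-b2 by 0.62, sums of 187 to 525 against 238 to 394) and meninges markers (7 of 7 lower, Col1a2 by -0.47, sums of 42.5 to 150 against 109 to 190) varied widely between arrays. Their part in the values of the immediate early genes was not tested.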

How the data were processed

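The deposited scanner files hold intensities of 1-colour (Cy3) Agilent arrays, written by Feature Extraction 10.5.1.1 on an mm9 design, per the file headers. The processed intensity is background-subtracted and spatially detrended, with a surrogate for spots not above background, and is not normalized between arrays, per the file headers. The authors' deposited value table holds log2 values, and no source used here says how they were made. It matched quantile-normalized, probe-median-centred log2 intensities (95% of values within 0.00859, column medians -0.0064 to 0.00645) and was an alternative, its scale and centring being inferred.

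Values tested were log2 processed intensities, averaged over a probe's spots without outlier-flagged ones, minus each array's 75th percentile over all 55681 probes. A probe was tested if well above background on at least 3 of 6 arrays, and a gene took its brightest tested probe. Groups were compared with limma 3.58.1 (R 4.3.3; lmFit, eBayes, two-sided, Benjamini-Hochberg over 32696 genes, threshold 0.05), tested on simulated data. Between 86.7% and 91.08% of spots on an array exceeded background clearly, with 0 saturated. The number of arrays limits the precision.

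Gene names other than members' were updated through RefSeq (GRCm38.p6; 28325 probes by accession, 428 by another accession, 2039 by symbol, 162 by synonym, 24727 kept). Members and lists were chosen with earlier results of these data known. Genes given in full are those without group overlap, with an unadjusted p under 0.05 or with a log2 difference of at least 0.4 in size; of other lists, up to 3 by smallest p are named, and array values of further members were added after they were seen. Alternatives were quantile, median and normexp (offset 50) processing, dim-probe filters, outlier spots kept, probe means, a replicate block, variance trend, the deposited table, slide row, Y-linked signal and each array left out.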

Additional observations from a re-analysis of the deposited data

How the results depend on the processing

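None of the 32 genes passed under any of the 19 alternatives. The lowest adjusted p was 0.082, for Fosl2 with an intensity trend and robust variances. The 7 genes given in full kept their direction wherever they had a value. Fosl2, however, was only 0.08 with the mean of its opposing probes, and its dimmer probe alone was at -0.38. The count of all genes called, 3, was 12 with quantile normalization or the authors' matrix, 24 with median centring, 89 with normexp, 13 with the filter on all 6 arrays and 110 with the intensity trend. It was 0 without a filter on dim probes, with the slide row term or with the term for Y-linked signal, 2 without the arrays with Y-linked signal, and 0 to 4 with 1 array left out. The cause was not tested. The filter on all 6 arrays gave no value for Ptgs2. Immediate early genes at an unadjusted p under 0.05 numbered 3 with normexp, with the term for Y-linked signal and without the arrays with Y-linked signal, beside 7.52%, 3.36% and 4.1% of all genes. They numbered 7 with quantile normalization, the authors' matrix and the slide row term, beside 8.97%, 8.94% and 10% of all genes. Those without group overlap numbered 17 without the arrays with Y-linked signal, where 1 control array remains and 44.7% of all genes did not overlap, and 6 to 11 with 1 array left out, beside 19% to 27.6% of all genes. Their median log2 difference was -0.04 with normexp and -0.11 to -0.05 with 1 array left out. Samples share only a replicate number: deviations of same-numbered arrays correlated at -0.20, 0.08 and 0.17, and with the replicate block 0 genes were called and the immediate early gene median was -0.07. Dim signal limits Ptgs2 most.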
